A study of Mus musculus with 2 samples.

Results

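The small leucine-rich proteoglycans (SLRPs) considered here are the products of 10 genes, Dcn, Bgn, Aspn, Lum, Fmod, Prelp, Omd, Ogn, Podn and Chad, chosen by name as members of the family. All 10 were among the 31053 genes of the count tables, of which 20500 had at least 1 UMI (a unique molecular identifier, the tag that marks 1 captured RNA molecule). The cells were fibro/adipogenic progenitors (FAPs), the mesenchymal stromal cells of skeletal muscle, sorted as live Lin-Vcam1-Sca1+ cells (Lin being CD31 and CD45) from limb muscles of 3-week-old C57BL/6 mice and measured by droplet single-cell RNA sequencing with a 3′ kit. Both groups carried floxed Bap1 alleles. Bap1WT mice were Bap1f/f without Cre, and Bap1ΔMPC mice were Prx1-Cre;Bap1f/f, in which Cre is driven by a limb mesenchyme promoter and deletes the gene for the histone H2A deubiquitinase BAP1 in mesenchymal progenitors and their descendants. Each genotype was measured in 1 library, so the spread between animals or libraries is unknown and no test was made, and all intervals below are exact 95% intervals that cover counting error only. How many animals went into a library is not given in the sources used here.

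SLRPs are secreted matrix proteins built on a core of leucine-rich repeats. Most bind fibrillar collagens and regulate the assembly, spacing and diameter of fibrils, and several also hold growth factors such as TGF-β and BMPs or engage cell surface receptors. They are grouped in classes by sequence and gene structure: decorin (Dcn), biglycan (Bgn) and asporin (Aspn) in class I, lumican (Lum), fibromodulin (Fmod), PRELP (Prelp) and osteomodulin (Omd) in class II, osteoglycin (Ogn) in class III, with chondroadherin (Chad) and podocan (Podn) in the non-canonical classes. In muscle they belong to the connective tissue sheaths that FAPs and related fibroblasts maintain, and fibromodulin and chondroadherin are best known from tendon and cartilage.

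The Bap1WT library held 4103 cells with a median of 12232 UMIs per cell, and the Bap1ΔMPC library held 4378 cells with a median of 11017.5. Only 5 of 8481 cell barcodes occurred in both. UMIs were summed over cells and divided by the total of the same cells, as CPM (the usual counts scaled to one common total, so that libraries and classes of different size can be compared). All 6 FAP markers were detected in both libraries, with sums of 57188 CPM in Bap1WT and 34962 CPM in Bap1ΔMPC (Col1a1 alone was over 2-fold lower), while Ptprc, which defines leukocytes, and Pax7, Myf5 and Myod1, which define muscle stem and progenitor cells, were at 0 in both. Other genes of those lists were present at low levels, among them Lyz2 (109 and 337 UMIs), Cd68 (180 and 286 UMIs) and Vcam1 (37.6 and 20.5 CPM). The cells had been sorted as Vcam1-. The study removed cells with markers of other muscle-resident types. If that came before deposit, it may have fixed the zeros, which are thus no separate check of cell identity. Bap1 itself had 897 UMIs (17.6 CPM) in Bap1WT and 1072 UMIs (21.6 CPM) in Bap1ΔMPC, and 3′ counts do not show whether floxed exons were removed. Cells with 25 or more UMIs of Pi16, Sema3c, Anxa3 and Efemp1 together per 10000 UMIs were taken as Dpp4-type cells, and cells below that with 5 or more UMIs of Cxcl14 per 10000 as Cxcl14-type cells, after the Dpp4+ and Cxcl14+ subpopulations of FAPs. There were 1050 (25.6%) and 1251 (28.6%) Dpp4-type cells in Bap1WT and Bap1ΔMPC, 569 (13.9%) and 1020 (23.3%) Cxcl14-type cells, and 2484 and 2107 cells of neither class. Cxcl14 stood at 232 CPM in Bap1WT and 690 CPM in Bap1ΔMPC, so that the same Cxcl14 minimum took in more cells of the latter. Classes cut from a score are ranges rather than types: 210 and 337 cells had a marker sum of 20 to 30, and 156 and 147 cells had a Cxcl14 value of 4 to 6.

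SLRP transcripts made up 1.89% of all UMIs in Bap1WT (interval 1.885 to 1.893) and 1.66% in Bap1ΔMPC (1.655 to 1.662). In Bap1WT the share was 1.44% in Dpp4-type cells, 2.54% in Cxcl14-type cells and 1.95% in the rest, and in Bap1ΔMPC it was 1.30%, 1.95% and 1.75%. Decorin alone gave 72.9% of the family's UMIs in Bap1WT and 70.2% in Bap1ΔMPC, and it was the gene with the 5th highest sum in the former library and the 3rd highest in the latter. Without decorin, the other 9 genes summed to 5116 CPM and 4950 CPM, since lower and higher levels among them nearly cancelled, and most of the difference in the family's share was in Dcn.

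The members differed widely in level. A 3′ kit counts each captured transcript once, so these levels carry no length term, although how well each transcript was captured is unknown. In Bap1WT the order was Dcn (13773 CPM), Bgn (1663), Lum (1438), Aspn (846), Ogn (735), Prelp (249), Podn (101), Fmod (43.3), Omd (39.0) and Chad (1.71), and no neighbours in that order had overlapping counting intervals. The same order held in Bap1ΔMPC, from Dcn (11632 CPM) through Bgn (1283), Lum (1205), Aspn (1143), Ogn (943), Prelp (188), Podn (119), Fmod (24.5) and Omd (23.9) to Chad (20.8). There the intervals of Fmod (23.2 to 25.9 CPM) and Omd (22.6 to 25.3 CPM) overlapped. The lowest members therefore lay close together in Bap1ΔMPC, whereas in Bap1WT Chad stood far below the rest.

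Detection did not wholly follow the levels. Dcn had a UMI in 4101 of 4103 Bap1WT cells and 4376 of 4378 Bap1ΔMPC cells, and 7 members in each library had a UMI in over 50% of cells. Lum was in more cells than Bgn (98.1% against 92.4% in Bap1WT and 88.0% against 84.1% in Bap1ΔMPC) although its level was lower. Omd was found in 31.8% and 18.7% of cells, Fmod, with a higher level, in 8.80% and 3.77%, and Chad in 0.682% and 2.65%. With every cell thinned to 5000 UMIs, which left out 120 and 210 shallower cells, the shares were 16.1% and 10.1% for Omd, 5.90% and 2.86% for Fmod, and 0.351% and 1.97% for Chad. Podn then fell below 50% in both libraries (34.9% and 37.0%) and Prelp in Bap1ΔMPC only (60.7% and 47.6%). The count of members over 50% thus depends on depth. All cells in these libraries were sorted FAPs, so no cell type that should lack SLRPs was there to give the share that free RNA produces.

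**Figure D1:**
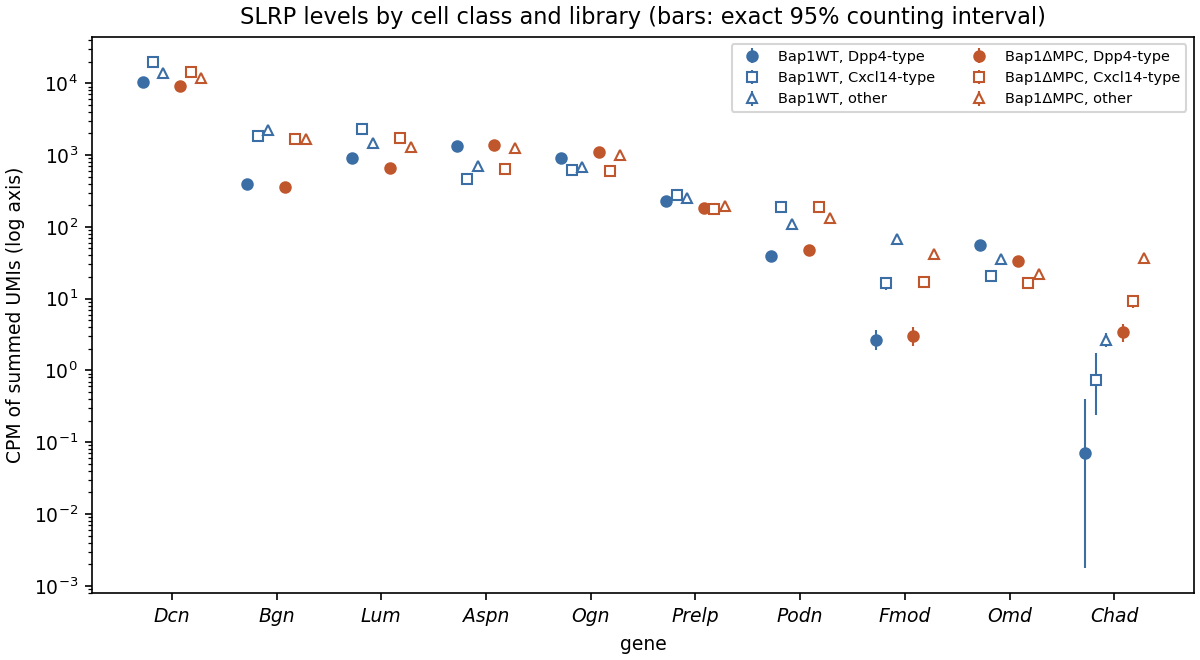
Level of each SLRP gene (CPM of summed UMIs, log axis) in Dpp4-type cells (filled circles), Cxcl14-type cells (open squares) and other cells (open triangles) of the Bap1WT (blue) and Bap1ΔMPC (orange) libraries, with exact 95% counting intervals. Bgn, Lum, Podn and Fmod sit lower in Dpp4-type than in Cxcl14-type cells in both libraries, Aspn and Omd sit higher, and Chad in Dpp4-type cells of Bap1WT rests on 1 UMI.

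Dpp4-type and Cxcl14-type cells were compared within each library to ask which SLRPs mark which class. In Bap1WT, 2 of the 9 members with enough UMIs (20 or more in both sums together) were over 2-fold higher in Dpp4-type cells and 4 were over 2-fold lower, against 7.55% and 9.61% of the 12218 genes compared. In Bap1ΔMPC, 1 of 10 was over 2-fold higher and 5 were over 2-fold lower, against 6.48% and 11.3% of 12685 genes. Dpp4-type cells thus carried less biglycan, lumican, podocan and fibromodulin and more asporin, in both libraries.

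Among the class I genes, Bgn showed the widest gap of the abundant members. Its level was 398 CPM in Dpp4-type and 1840 CPM in Cxcl14-type cells of Bap1WT, which is 4.62-fold lower (log2 ratio -2.21, interval -2.25 to -2.16). In Bap1ΔMPC the levels were 364 and 1649 CPM (-2.18, -2.22 to -2.14). Cells of neither class stood at 2215 CPM in Bap1WT and 1686 CPM in Bap1ΔMPC. Bgn was thus low in Dpp4-type cells rather than particular to Cxcl14-type cells. Aspn, which binds collagen at the same kind of site as decorin, went the other way, with 1333 CPM in Dpp4-type and 458 CPM in Cxcl14-type cells of Bap1WT (log2 ratio 1.54, 1.49 to 1.60). In Bap1ΔMPC it had 1367 and 647 CPM (1.08, 1.04 to 1.12), so the gap between the classes was narrower there because the Cxcl14-type level was higher. Dcn stayed within 2-fold, at 10547 and 19637 CPM in Bap1WT (-0.90) and 9235 and 14432 CPM in Bap1ΔMPC (-0.64). Its ratio passed 2-fold in Bap1WT when the Cxcl14 minimum was raised to 10 per 10000 (log2 -1.03).

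The class II genes did not go one way. Lum, the lumican gene, was at 913 CPM in Dpp4-type and 2340 CPM in Cxcl14-type cells of Bap1WT, a log2 ratio of -1.36, and at 667 and 1719 CPM in Bap1ΔMPC, a log2 ratio of -1.37. Fmod had 38 UMIs in Dpp4-type cells of Bap1WT (2.69 CPM) and 109 in Cxcl14-type cells (16.3 CPM), a log2 ratio of -2.59 (-3.17 to -2.05), and the ratio in Bap1ΔMPC was -2.52 (-3.03 to -2.05). Most Fmod was in neither class: the other cells stood at 68.3 CPM in Bap1WT and 41.6 CPM in Bap1ΔMPC. Prelp, whose protein anchors basement membranes to connective tissue, was nearly even between the classes, at 231 and 279 CPM in Bap1WT (-0.27) and 185 and 177 CPM in Bap1ΔMPC (0.07, -0.01 to 0.15). Omd, named for its part in bone matrix, was at 55.5 and 20.4 CPM in Bap1WT (log2 ratio 1.44, 1.18 to 1.71). In Bap1ΔMPC it was at 33.0 and 16.5 CPM, a fold of 1.996 (log2 0.997, 0.75 to 1.25), just inside the 2-fold limit, and 9 of 11 alternatives put it past that limit.

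Ogn, the class III member, was higher in Dpp4-type cells by less than 2-fold, with 915 and 614 CPM in Bap1WT (log2 ratio 0.58, 0.53 to 0.63) and 1105 and 599 CPM in Bap1ΔMPC (0.88, 0.84 to 0.92). With a Cxcl14 minimum of 10 per 10000 the latter ratio passed 2-fold (1.02). Podn, the podocan gene, had 39.3 CPM in Dpp4-type and 188 CPM in Cxcl14-type cells of Bap1WT (-2.26, -2.40 to -2.11), and 47.3 and 186 CPM in Bap1ΔMPC (-1.98, -2.10 to -1.85). Chad had 1 UMI in Dpp4-type and 5 in Cxcl14-type cells of Bap1WT, too few to compare. In Bap1ΔMPC it had 50 and 103 UMIs (-1.43, -1.95 to -0.93), but 32 of the 50 came from 1 cell.

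The levels were also laid out along the marker sum itself, in 6 ranges set after the classes had been compared. As the upper 3 ranges make up the Dpp4-type class, this describes the class difference in more detail and adds no separate support. From cells with a sum under 5 to cells with 100 or more per 10000 in Bap1WT, Bgn was lower at every step, from 2257 to 192 CPM, and so was Podn, from 135 to 26.8 CPM. Aspn was higher at every step, from 536 to 1446 CPM, as were Ogn, from 593 to 980 CPM, and Omd, from 30.1 to 69.3 CPM. In Bap1ΔMPC, Bgn went from 1874 to 248 CPM and Podn from 164 to 21.9 CPM, again lower at every step, and Ogn was higher at every step, from 806 to 1474 CPM. Aspn went from 921 to 1792 CPM there with a dip in the range of 25 to under 50, and Omd was highest, at 37.5 CPM, in the range of 50 to under 100. The Bap1WT cells with 100 or more were deeper (median 13533 UMIs) than those under 5 (11522), and the corresponding medians in Bap1ΔMPC were 11278 and 10647.

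**Figure D2:**
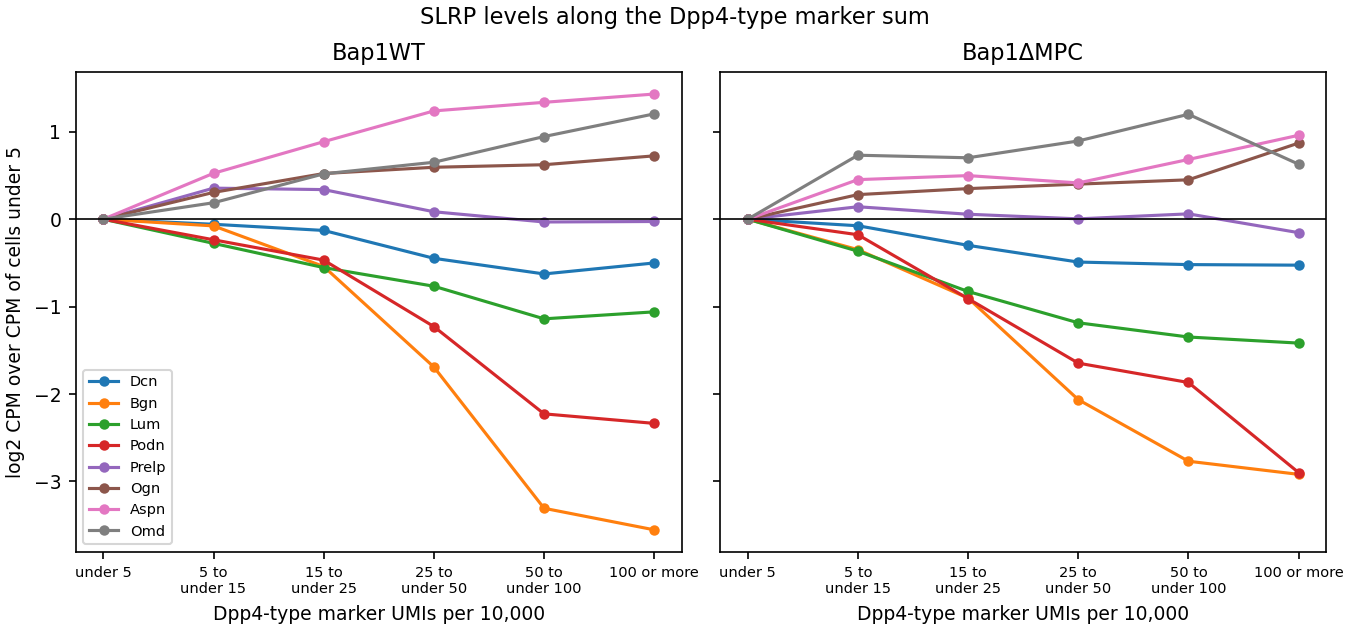
Level of 8 SLRP genes in cells grouped by their summed UMIs of Pi16, Sema3c, Anxa3 and Efemp1 per 10000, as log2 of CPM over the CPM of cells under 5, in Bap1WT (left) and Bap1ΔMPC (right). Bgn and Podn go down and Aspn, Omd and Ogn go up from left to right, with the Omd value of the last range in Bap1ΔMPC resting on 23 UMIs; Fmod and Chad are left out for low counts.

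Several members are neighbours in the genome (GRCm38, GENCODE vM21 annotation). Aspn (chr13:49544443-49567565), Omd (chr13:49582462-49592822) and Ogn (chr13:49608046-49624501) lie in tandem on the plus strand, with 14.9 kb and 15.2 kb between them, and they are the 3 members with higher levels in Dpp4-type cells of both libraries. Ecm2, a further family gene 11.7 kb before Aspn on the same strand, was at 71.1 CPM in Dpp4-type and 164 CPM in Cxcl14-type cells of Bap1WT (log2 ratio -1.21, -1.33 to -1.08), the opposite direction. In Bap1ΔMPC its levels were 97.5 and 120 CPM (-0.29). Dcn (chr10:97479609-97518143) and Lum (chr10:97565128-97572703), 47.0 kb apart, were both lower in Dpp4-type cells. Kera and Epyc, further family genes, follow Lum on the same strand after gaps of 34.2 kb and 30.4 kb. Kera was lower too (log2 ratio -1.23 in Bap1WT and -2.37 in Bap1ΔMPC). Epyc went the opposite way in Bap1WT, with 41 UMIs in Dpp4-type and 3 in Cxcl14-type cells (2.70, 1.05 to 5.03). In Bap1ΔMPC Epyc had 15 and 20 UMIs (1.02 and 1.78 CPM). Prelp (chr1:133910304-133921414) and Fmod (chr1:134037254-134048277), 116 kb apart and on opposite strands, differed. Podn (chr4:108014791-108096445), Chad (chr11:94565047-94569127) and Bgn (chrX:73483602-73495933) have no other member beside them. All 10 are protein-coding. In the annotation Podn overlaps Scp2 on the same strand, and Aspn, Omd and Ogn overlap Cenpp, Chad overlaps Acsf2 and Prelp overlaps Gm15851 on the opposite strand, so the Podn count in particular depends on how reads in shared stretches were assigned.

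Bgn, like Lum, Podn and Fmod, was over 2-fold lower in Dpp4-type cells, and Chad had the widest ratio between the libraries. Shown here are the stretches before the transcription starts of the chromosome 13 trio, Bgn and Chad. They are the 250 bases before the RefSeq start on GRCm38.p6, 5′ to 3′ on the gene's strand, in lower case, with capitals marking a TATA box (TATAAA), a GC box (GGGCGG), a RUNX motif (TGTGGT) or a TEAD motif (CATTCC) on either strand. The AP-1 motif TGANTCA was searched too and was in none of them.
Aspn, chr13:49544193-49544442, plus strand: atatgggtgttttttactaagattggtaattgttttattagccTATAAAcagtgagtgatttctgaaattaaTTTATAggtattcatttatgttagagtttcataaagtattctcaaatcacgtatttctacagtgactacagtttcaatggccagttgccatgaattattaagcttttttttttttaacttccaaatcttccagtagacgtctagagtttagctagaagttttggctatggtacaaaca
Omd, chr13:49582212-49582461, plus strand: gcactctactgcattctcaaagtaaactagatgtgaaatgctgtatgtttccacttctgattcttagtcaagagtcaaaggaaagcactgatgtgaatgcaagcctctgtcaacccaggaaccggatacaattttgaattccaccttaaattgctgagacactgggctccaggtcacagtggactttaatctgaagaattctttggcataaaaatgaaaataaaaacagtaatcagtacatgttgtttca
Ogn, chr13:49607765-49608014, plus strand: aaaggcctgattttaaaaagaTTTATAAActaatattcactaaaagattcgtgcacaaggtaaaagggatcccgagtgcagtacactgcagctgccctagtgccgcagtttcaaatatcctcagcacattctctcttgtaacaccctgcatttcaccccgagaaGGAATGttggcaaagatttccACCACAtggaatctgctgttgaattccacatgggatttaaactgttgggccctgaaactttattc
Bgn, chrX:73483351-73483600, plus strand: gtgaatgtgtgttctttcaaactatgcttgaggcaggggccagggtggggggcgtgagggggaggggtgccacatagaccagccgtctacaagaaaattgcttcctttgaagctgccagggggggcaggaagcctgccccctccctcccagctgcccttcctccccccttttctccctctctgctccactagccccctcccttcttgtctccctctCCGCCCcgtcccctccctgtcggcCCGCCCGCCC
Chad, chr11:94564797-94565046, plus strand: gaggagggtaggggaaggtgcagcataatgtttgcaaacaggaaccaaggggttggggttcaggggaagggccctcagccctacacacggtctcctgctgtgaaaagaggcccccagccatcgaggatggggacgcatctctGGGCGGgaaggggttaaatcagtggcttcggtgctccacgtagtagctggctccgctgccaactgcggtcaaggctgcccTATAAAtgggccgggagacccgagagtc

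Of the 10 members, 8 had an entry among the promoter sequences, and Dcn and Lum did not. The trio had few G and C bases: 30% in Aspn, 38.4% in Omd and 42.0% in Ogn, against a median of 52.4% over 32851 windows of the same length, and 1.47%, 9.05% and 15.9% of all windows were lower. Bgn (64.4%) and Chad (60.4%) were above the median. Among other members lower in Dpp4-type cells, Podn was at 78.0% and 64.0% at separate starts. Fmod, at 51.2%, was just below the median and held none of the 5 motifs. Aspn held 2 TATA boxes, 207 and 178 bases before the start, and Ogn held 2 that overlap on opposite strands, 229 and 227 bases before it. TATA boxes were in 12.4% of all windows. Ogn also held a RUNX motif at -65 and a TEAD motif at -86, which were in 14.0% and 12.6% of windows, and the Omd window held none of the 5 motifs. Bgn held 3 GC boxes within 34 bases of the start, of which the last 2 overlap, and Chad held a TATA box at -28 and a GC box at -108. GC boxes were in 32.7% of all windows and AP-1 motifs in 6.75%. These are matches of letters in a window and nothing was measured at them.

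The libraries were then compared to ask which SLRPs differ between the genotypes. Over all cells, 1 of the 10 members (Chad) was over 2-fold higher in Bap1ΔMPC and none was over 2-fold lower, against 6.63% and 5.37% of 14729 genes. In Dpp4-type cells 1 (Chad) was higher and 0 lower, against 4.34% and 4.51% of 12517 genes, and in Cxcl14-type cells again 1 (Chad) was higher and 0 lower, against 6.92% and 4.84% of 12265 genes. The median log2 ratio of the members over all cells was -0.25, and that of all genes compared was 0.10. The other 9 stayed within 2-fold in either direction, and Fmod and Omd had the lowest ratios.

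Of the class I genes over all cells, Dcn went from 13773 CPM in Bap1WT to 11632 in Bap1ΔMPC (log2 ratio -0.24) and Bgn from 1663 to 1283 (-0.37). Dcn was lower in Bap1ΔMPC in Dpp4-type (-0.19), Cxcl14-type (-0.44) and other cells (-0.24), and so was Bgn (-0.13, -0.16 and -0.39), although the Bgn ratio in Dpp4-type cells was 0.19 with a marker minimum of 40. Aspn went from 846 to 1143 CPM (0.43, 0.42 to 0.45). The Aspn difference was not spread evenly: it was 1333 against 1367 CPM in Dpp4-type cells (0.04, and -0.04 with TMM scaling), 458 against 647 CPM in Cxcl14-type cells (0.50, 0.44 to 0.56) and 704 against 1239 CPM in cells of neither class (0.82, 0.79 to 0.84). In class II, Lum went from 1438 to 1205 CPM (-0.26), Prelp from 249 to 188 CPM (-0.41) and Omd from 39.0 to 23.9 CPM (-0.71, -0.81 to -0.60). Lum was lower by about the same in Dpp4-type (-0.45) and Cxcl14-type cells (-0.45) and by less in the rest (-0.19). Prelp differed more in Cxcl14-type cells (279 against 177 CPM, -0.66) than in Dpp4-type cells (231 against 185 CPM, -0.32), and Omd more in Dpp4-type cells (55.5 against 33.0 CPM, -0.75, -0.92 to -0.59) than in Cxcl14-type cells (20.4 against 16.5 CPM, -0.31, -0.63 to 0.02).

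Ogn was at 735 CPM in Bap1WT and 943 CPM in Bap1ΔMPC (log2 ratio 0.36, 0.34 to 0.38). By class it was 915 against 1105 CPM in Dpp4-type cells (0.27), 614 against 599 CPM in Cxcl14-type cells (-0.04, -0.09 to 0.02) and 677 against 1005 CPM in the rest (0.57). Podn was at 101 against 119 CPM over all cells (0.24), with a ratio in Cxcl14-type cells (-0.01, -0.12 to 0.09) that counting error does not separate from 0. Ogn and Aspn therefore had their largest ratios between the libraries in cells outside both classes.

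**Figure D3:**
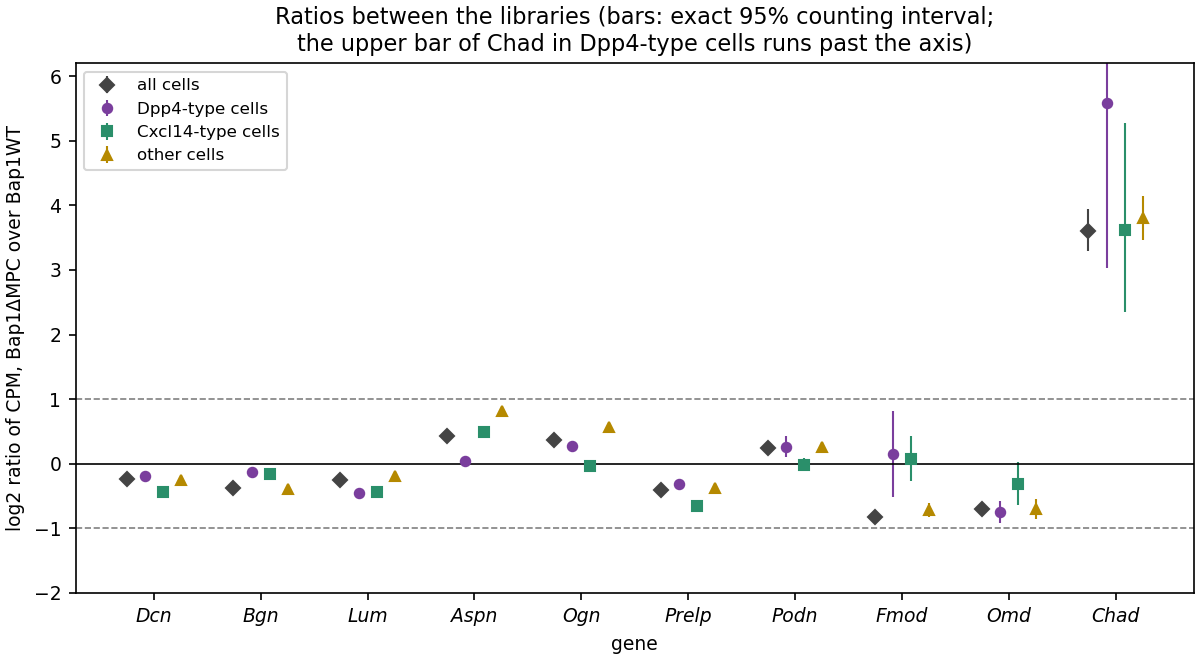
Log2 ratio of CPM, Bap1ΔMPC over Bap1WT, for each SLRP gene in all cells (black diamonds), Dpp4-type cells (purple circles), Cxcl14-type cells (green squares) and other cells (gold triangles), with exact 95% counting intervals and dashed lines at 2-fold. The upper bound of Chad in Dpp4-type cells (10.9) runs past the axis. Chad lies between 3.61 and 5.58 in every class, and the other 9 genes lie between -0.82 and 0.82.

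Chad, whose protein attaches chondrocytes to cartilage matrix and binds collagen, had 87 UMIs in Bap1WT (1.71 CPM) and 1030 in Bap1ΔMPC (20.8 CPM), 12.2-fold more (log2 ratio 3.61, 3.29 to 3.94). These came from 28 and 116 cells, and 50% of the UMIs were in 3 and 8 cells. A single Bap1ΔMPC cell held 245 UMIs, 23.8% of the total, and without the highest cell of each library the fold was 11.7 (log2 3.55). Without the 5% of cells with the most UMIs of all genes, the log2 ratio was 2.96. In Dpp4-type cells Chad had 1 UMI against 50, a log2 ratio of 5.58 with an interval from 3.03 to 10.9, and 18 against 0 without the highest cell of each library. In Cxcl14-type cells it had 5 UMIs against 103 (log2 3.62, 2.35 to 5.27). The cells of neither class held 81 of the 87 UMIs in Bap1WT and 877 of the 1030 in Bap1ΔMPC.

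Cells with Chad often carried transcripts of tendon cells. Tnmd (tenomodulin, a tendon membrane protein) was detected in 12 of 28 Chad-positive cells in Bap1WT (42.9%) and in 6.48% of the cells without Chad, and in 44 of 116 (37.9%) and 7.51% in Bap1ΔMPC. Comp, a tendon and cartilage matrix protein, was detected in 35.7% and 3.48% in Bap1WT and in 60.3% and 14.6% in Bap1ΔMPC. Median depth was alike in Chad-positive and Chad-negative cells, at 12440 and 12227 UMIs in Bap1WT and 11260 and 11008 in Bap1ΔMPC. Of the 9 listed tendon markers, 6 (Thbs4, Tnmd, Kera, Scx, Cilp2 and Comp) were over 2-fold higher in the Bap1ΔMPC library and none was over 2-fold lower, against 6.63% and 5.37% of all genes compared, with a median log2 ratio of 1.38. Fibin, also listed, went the other way, at 36.3 CPM in Bap1WT and 18.2 CPM in Bap1ΔMPC (log2 ratio -0.99). Its ratio was -1.94 in Dpp4-type cells, -2.46 in Cxcl14-type cells and -0.46 in the rest. The 9 markers summed to 2673 CPM in Bap1WT and 3367 CPM in Bap1ΔMPC. Most of that came from Egr1, which stressed cells of many types also express.

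Cells were therefore separated by their summed UMIs of 4 tendon markers, Tnmd, Scx, Mkx and Cilp2, in ranges chosen after the levels were known. There were 3715 Bap1WT and 3795 Bap1ΔMPC cells with none, 303 and 389 with 1 to 4, and 85 (2.07%) and 194 (4.43%) with 5 or more. The 4 markers were themselves higher in Bap1ΔMPC, with Tnmd at 23.2 against 60.4 CPM and Cilp2 at 4.51 against 18.1 CPM. The same range therefore need not hold like cells in both libraries. Chad was higher in Bap1ΔMPC in each range: 0.936 against 7.49 CPM in cells with none (log2 interval 2.54 to 3.50), 1.57 against 22.7 CPM with 1 to 4 (14.5-fold), and 30.1 against 237 CPM with 5 or more (7.89-fold). The ratio was thus smaller in cells with none and in those with 5 or more than over all cells together. In the narrower set of cells that also lacked Kera, Comp and Thbs4 (2796 and 2719 cells), Chad had 7 and 60 UMIs (log2 3.28, 2.15 to 4.65).

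Fmod, the fibromodulin gene, showed a different pattern in the same ranges. Over all cells it went from 43.3 to 24.5 CPM, 1.77-fold lower in Bap1ΔMPC (log2 ratio -0.82, -0.92 to -0.72). Counting error did not separate its ratio from 0 in Dpp4-type cells (0.15, -0.51 to 0.81) or Cxcl14-type cells (0.08, -0.27 to 0.43), and it was -0.72 (-0.83 to -0.61) in cells of neither class. In cells without a UMI of the 4 markers it had 1365 UMIs (29.7 CPM) in Bap1WT and 164 (3.88 CPM) in Bap1ΔMPC, 7.67-fold lower (-2.94, -3.18 to -2.70). In cells with 1 to 4 such UMIs it was 53.4 against 26.1 CPM (-1.03), and in cells with 5 or more it was 508 against 363 CPM (-0.48, -0.63 to -0.34). Cells without the markers held 61.8% of the Fmod UMIs in Bap1WT but 13.5% in Bap1ΔMPC. As the markers were higher in Bap1ΔMPC, the cells without them are not matched sets, and the 7.67-fold ratio is not one between like cells. Without the cells that also had Kera, Comp or Thbs4, the values were 22.2 against 1.91 CPM (-3.54, -3.96 to -3.15).

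There were 78 Bap1WT cells with 5 or more Fmod UMIs and no UMI of the 4 markers, and 76 of them belonged to neither class. Bap1ΔMPC had 9 such cells. The Bap1WT cells, whose median depth of 16979 UMIs was above that of the library, stood at 840 CPM for Fmod, 71.1 CPM for Tnc (tenascin-C), 60.0 CPM for Col11a1, 295 CPM for Thbs4 and 0.790 CPM for Comp. The 9 Bap1ΔMPC cells without the markers stood at 496 CPM for Fmod, 481 for Tnc, 0 for Col11a1, 933 for Thbs4 and 533 for Comp. In Bap1ΔMPC, 49 cells had 5 or more Fmod UMIs and at least 1 marker UMI. They stood at 1406 CPM for Fmod, 384 for Tnc, 415 for Col11a1, 3697 for Thbs4 and 2061 for Comp. The 39 such cells of Bap1WT stood at 1285, 154, 282, 947 and 91.7 CPM. Cells with 5 or more Fmod UMIs thus mostly lacked the 4 markers in the Bap1WT library and mostly carried at least 1 in the Bap1ΔMPC library. The Thbs4 values are pooled over cells and do not give how many of the cells carried it.

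In the same ranges, Aspn was at 843 against 1040 CPM in cells without the markers (log2 ratio 0.30), 842 against 1543 with 1 to 4 (0.87), and 970 against 2116 CPM with 5 or more (1.13, 1.04 to 1.22). Ogn followed it, at 735 against 877 CPM (0.26), 634 against 1071 CPM (0.76) and 1041 against 1788 CPM (0.78). Bgn was lower in Bap1ΔMPC in cells without the markers (1640 against 1178 CPM, -0.48) and higher in cells with 5 or more (2116 against 2575 CPM, 0.28, 0.22 to 0.35). Dcn (-0.23 and -0.33), Lum (-0.22 and -0.47) and Prelp (-0.49 and -0.30) were lower in Bap1ΔMPC both without the markers and with 5 or more. Omd was also lower in both, at 39.8 against 24.7 CPM without the markers (-0.69) and 34.1 against 14.1 CPM with 5 or more (-1.27, -1.96 to -0.60), where it had 43 and 36 UMIs. Podn was higher in both, at 101 against 116 CPM (0.20) and 84.0 against 138 CPM (0.71, 0.40 to 1.04). Prelp was at 238 CPM in Bap1WT cells without the markers and at 504 CPM in those with 5 or more.

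**Figure D4:**
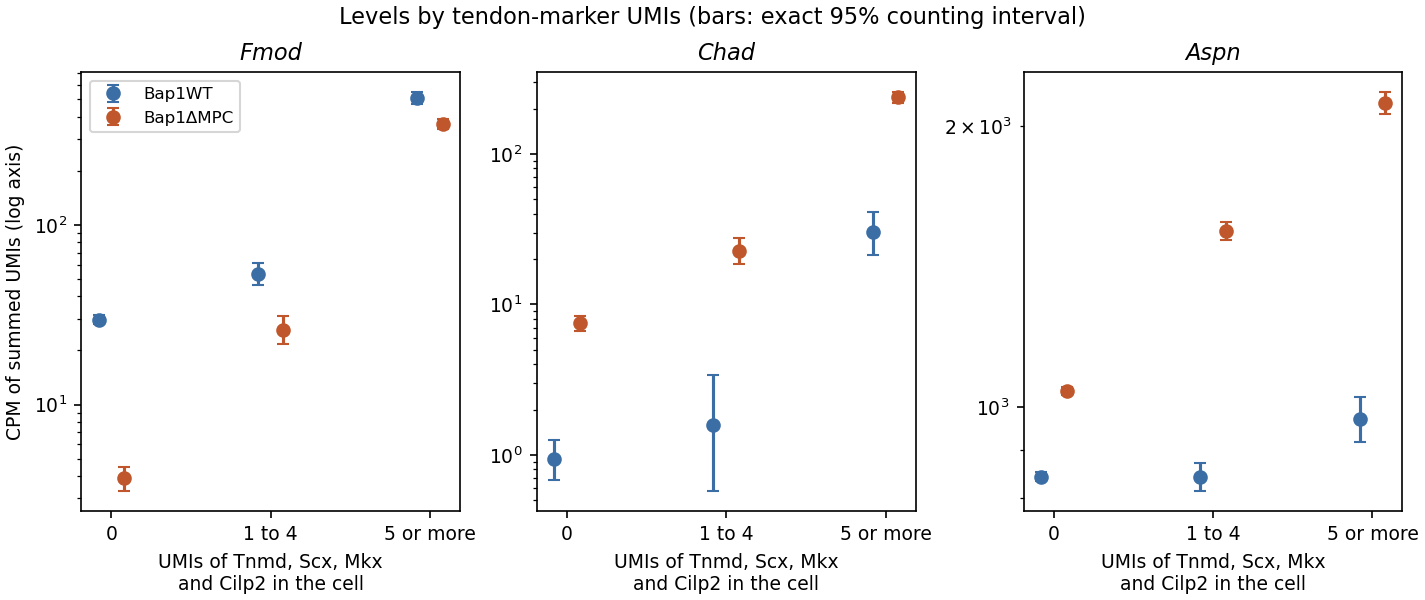
CPM of Fmod, Chad and Aspn (log axes) in cells with 0, 1 to 4 and 5 or more summed UMIs of Tnmd, Scx, Mkx and Cilp2, in Bap1WT (blue) and Bap1ΔMPC (orange), with exact 95% counting intervals. The Fmod gap is widest in cells with 0 (29.7 against 3.88 CPM), Chad is higher in Bap1ΔMPC in each range, and the Aspn gap widens from 0 to 5 or more.

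Adipocyte markers differed between the libraries as well. Of 6 listed, 4 were detected in Bap1WT and 6 in Bap1ΔMPC, with sums of 5.04 and 53.6 CPM, mostly Fabp4. In the 3939 and 3841 cells without a UMI of Adipoq, Plin1 or Fabp4, Chad was 12.1-fold higher and the log2 ratios were -0.70 for Fmod, 0.44 for Aspn and -0.68 for Omd, close to those over all cells. Markers of cycling cells summed to 32.8 and 60.4 CPM, Schwann markers to 21.2 and 67.3 CPM (mostly S100b, with Sox10 at 0 in Bap1ΔMPC), mural markers to 59.4 and 52.3 CPM, endothelial markers to 13.6 and 9.31 CPM, immune markers to 7.27 and 15.3 CPM, and muscle stem cell and myofiber markers to 66.0 and 34.3 CPM. Cartilage and bone markers summed to 86.9 and 113 CPM, with Matn1 and Ibsp at 0 in both libraries. Of the 7 genes of that list compared, 2 were over 2-fold higher in Bap1ΔMPC and 0 over 2-fold lower, against 6.63% and 5.37% of all genes. The 2 were Acan (2 against 61 UMIs) and Col2a1 (5 against 20 UMIs), both genes of cartilage matrix. The median log2 ratio of the list was 0.02, that of all genes compared was 0.10, and Bglap was lowest (34 against 26 UMIs, -0.34). The part of these lists in the SLRP values was not tested, other than by leaving out cells as described.

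How evenly a gene was spread over cells also set the members apart. The 5% of cells with the most UMIs of a gene held 12.0% of the Dcn UMIs in Bap1WT and 14.7% in Bap1ΔMPC, but 92.9% and 100% of the Fmod UMIs, and 50% of the Fmod UMIs were in 36 and 17 cells. Lum (16.4% and 21.0%), Ogn (18.3% and 25.6%), Bgn (19.4% and 23.8%), Prelp (19.5% and 26.2%), Aspn (20.8% and 31.9%), Podn (24.9% and 27.9%) and Omd (33.3% and 48.0%) lay between. The 8 genes other than Fmod and Chad were more concentrated in Bap1ΔMPC by this measure, which has no room to differ for genes found in under 5% of cells. It uses UMIs not scaled for depth, and median depth was 12232 UMIs in Bap1WT and 11017.5 in Bap1ΔMPC. The part of depth in it was not tested. The largest shift among the 6 most abundant members was that of Aspn. The median Aspn value per cell was 6.24 UMIs per 10000 in Bap1WT and 6.46 in Bap1ΔMPC, whereas the 99th percentile was 33.2 and 76.5. For Ogn the medians were 5.93 and 6.28 and the 99th percentiles 28.9 and 51.4.

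**Figure D5:**
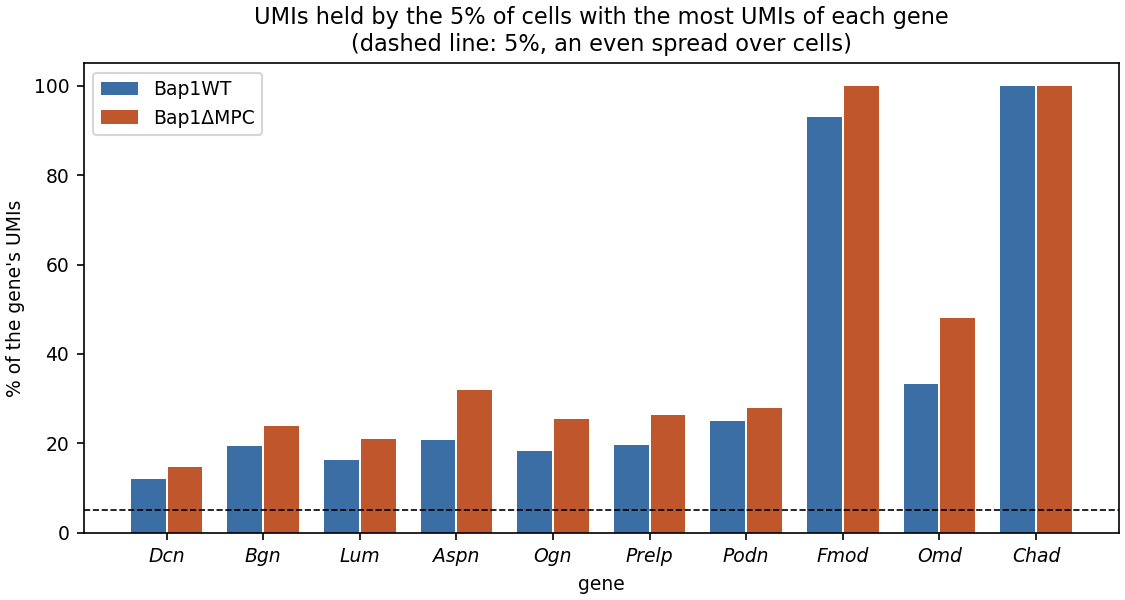
Percent of each gene's UMIs held by the 5% of cells with the most UMIs of that gene in Bap1WT (blue bars, 205 cells) and Bap1ΔMPC (orange bars, 218 cells), with a dashed line at 5%. Dcn is the most evenly spread (12.0% and 14.7%), Fmod and Chad are almost wholly in these cells, and Aspn goes from 20.8% to 31.9%.

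Across cells, the genes closest to each member were sought among 10940 genes with 100 or more UMIs in each library, by the Pearson r of log(1 + UMIs per 10000), ranked on the lower of both libraries' values. The cells of a library share its chemistry and differ in depth, so these are descriptions. Bgn had the closest partners: Igfbp7, an IGF-binding matrix protein (r = 0.74 in Bap1WT and 0.67 in Bap1ΔMPC), Cygb (0.65 and 0.52) and the microfibril gene Mfap4 (0.60 and 0.50). Dcn and Lum were each other's closest gene (0.38 and 0.39), followed for Dcn by Smoc2 and Ms4a4d and for Lum by Col15a1 and Igfbp7. Fmod was closest to Col11a1 (0.33 and 0.43), a fibril-nucleating collagen, then to Tnc (0.40 and 0.28) and 1500015O10Rik (0.45 and 0.26). Aspn was closest to the matricellular gene Postn (0.43 and 0.32), then to Fstl1 (0.47 and 0.29) and Col14a1 (0.29 and 0.34). Ogn had Fndc1 (0.36 and 0.32), Anxa3 and Creb5, of which Anxa3 is one of the Dpp4-type markers. Podn had Hmcn2 (0.37 and 0.35), Smoc2 and Abca8a, and Prelp had Fbln2 (0.37 and 0.29), Plxdc2 and Lbp. Omd had only its neighbour Ogn at 0.2 or more (0.23 and 0.23), and Chad had too few UMIs in Bap1WT to be ranked.

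Of the 36 pairs among the 9 ranked members, 8 had a negative r in both libraries and 4 had an r over 0.2 in both. The lowest r was that of Bgn and Ogn in Bap1WT (-0.36, with -0.22 in Bap1ΔMPC) and that of Lum and Ogn in Bap1ΔMPC (-0.30, with -0.10 in Bap1WT). The r of Dcn and Ogn was 0.31 in Bap1WT and -0.02 in Bap1ΔMPC over all cells. Within classes it was 0.11, 0.46 and 0.44 in Dpp4-type, Cxcl14-type and other cells of Bap1WT, and -0.01, 0.05 and 0.02 in those of Bap1ΔMPC. Aspn and Bgn went from -0.24 to 0.11 over all cells and from -0.06 to 0.22 in cells of neither class, while in Cxcl14-type cells they were at 0.42 and 0.47.

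The genes that SLRPs work with were followed as lists. Among 14 fibrillar and fibril-associated collagen genes over all cells, Col11a2 and Col2a1 were over 2-fold higher and Col1a2 and Col1a1 over 2-fold lower in Bap1ΔMPC, with a median log2 ratio of 0.02. The shares over all genes were 6.63% and 5.37%, with a median of 0.10, for this and the following lists. Col1a1, which with Col1a2 makes the main fibril that decorin and lumican bind, was at 21267 CPM in Bap1WT and 9859 CPM in Bap1ΔMPC, and Col1a2 at 20780 and 9386 CPM (-1.15). The ratio of type I collagen was thus further from 1 than that of Dcn (-0.24) or Lum (-0.26). Of 7 further SLRP family genes compared, Kera (keratocan, 10.3 against 28.6 CPM, log2 1.48) and Podnl1 (13 against 52 UMIs, 2.04) were over 2-fold higher and none was lower, with Optc the lowest (82 against 47 UMIs, -0.76).

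Of 22 genes that build the chondroitin or dermatan sulfate chains carried by decorin, biglycan and other SLRPs, 1 (Chst13, 5 against 29 UMIs, log2 2.58) was over 2-fold higher in Bap1ΔMPC and none was lower, with a median of 0.13, a share near that over all genes. Of 7 compared genes for keratan sulfate chains, which fibromodulin, lumican, keratocan and osteomodulin can carry, none passed 2-fold, from B3gnt2 (-0.48) to Chst1 (0.53). Chst1 did differ between the classes, at 33.0 CPM in Dpp4-type and 1.94 CPM in Cxcl14-type cells of Bap1WT (log2 4.09) and at 42.1 and 3.38 CPM in Bap1ΔMPC (3.64). Among 17 processing proteases and fibril enzymes, Lox, the collagen cross-linking oxidase, was over 2-fold lower in Bap1ΔMPC (186 against 86.5 CPM, -1.10) and none was higher. Pcolce and Pcolce2, both enhancers of procollagen processing, split between the classes: Pcolce stood at 1242 and 3181 CPM in Dpp4-type and Cxcl14-type cells of Bap1WT (-1.36) and Pcolce2 at 886 and 78.6 CPM (3.49). Among 17 ligands and receptors that SLRPs bind, Met, a receptor that decorin engages (8.70 against 1.64 CPM, -2.41), and Wisp1 (16.6 against 4.86 CPM, -1.77) were over 2-fold lower in Bap1ΔMPC, and none was higher.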

How the data were processed

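The files deposited by the authors held raw UMI counts, as a matrix of genes by cells for each library, and no other unit was used. Per the study's methods and labels, 10x 3′ v3.1 libraries were aligned and counted with Cell Ranger 3.1.0 on mm10, and quality control, doublet gating and removal of cells with markers of other muscle-resident types were done in Seurat 3.2.1 (R 3.6.1). The thresholds, and which of these steps came before deposit, are not given in the sources used here. FastQC 0.11.7 and bcl2fastq 2.20.0 are also in the submitters' processing notes. All deposited cells were kept. They had 1501 to 4998 genes and under 5% mitochondrial UMIs, so limits on both had been applied. No doublet caller was run here, and leaving out the 5% of cells with the most UMIs was an alternative.

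UMIs were summed per library and cell class (cells are not replicates) and divided by the total. Totals were 51015705 UMIs in Bap1WT and 49540066 in Bap1ΔMPC. No clusters were formed and no test was run. Genes entered a ratio with 20 or more UMIs in both sums together and were called past 2-fold. A count of 0 was set to 3 counts in a ratio. Intervals were exact conditional binomial for ratios and exact Clopper-Pearson for CPM and shares, at 95%, covering counting error only. Thinning drew 5000 UMIs per cell with a fixed seed. TMM factors came from edgeR 4.0.16, used without a model. Of the steps, only the ratios and their intervals were tested on simulated data, drawn as Poisson counts from the sums. Such draws do not mimic UMIs held by few cells, as for Chad and Fmod. The tools were Python 3.11.15, numpy 2.4.6, scipy 1.17.1 and R 4.3.3.

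All 10 members are named in the comparisons between classes and between libraries. From the other lists, the largest rise and fall or the genes past 2-fold serve as examples, and for each member up to 3 genes with an r of 0.2 or more are named. Genes named in cells with tendon markers, and Ecm2, Kera, Epyc, Chst1, Pcolce and Pcolce2 by class, were chosen after their values were seen. So were the tendon-marker ranges, the score ranges and the pairs shown by class. The members and all lists were chosen with earlier results of these data known. Gene positions came from GENCODE vM21 and promoter windows from RefSeq (GRCm38.p6). Windows were printed for the chromosome 13 trio, Bgn and Chad only.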

Additional observations from a re-analysis of the deposited data

Results flagged for a closer look

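The Chad difference in cells that belong to neither the Dpp4-type nor the Cxcl14-type class lay outside the main comparisons and stood above the level of the control library: 81 UMIs (2.68 CPM) in Bap1WT and 877 UMIs (37.3 CPM) in Bap1ΔMPC, a log2 ratio of 3.80 (3.47 to 4.14) with 1 library per genotype and no test. Chad was detected in 23 and 86 of these cells. Without the highest cell of each library, which held 22.2% and 27.9% of the UMIs, the log2 ratio was 3.69 (3.31 to 4.09).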

How the results depend on the processing

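Member ratios were recomputed under up to 10 other settings for all cells and 15 for the classes, plus 2 for all cells added after seeing the data. The number of members past 2-fold between the libraries over all cells (1) became 3 at 1.5-fold (Chad, Fmod and Omd) and 2 (Chad higher, Fmod lower) without cells carrying any of 4 or any of 7 tendon markers. In Dpp4-type cells (1) it became 2 at 1.5-fold (Omd joined) and 0 with a minimum of 100 UMIs, after thinning or with a Dpp4-type minimum of 40, each of which left Chad with too few UMIs to enter, and without tendon-marker cells the 1 call was Fmod, lower, in place of Chad. In Cxcl14-type cells (1) it became 2 at 1.5-fold, without tendon-marker cells or with a Cxcl14 minimum of 2, where Fmod joined as lower in the latter 2 settings and Prelp at 1.5-fold. Between the classes, 6 members past 2-fold became 3 at 3-fold (Bgn, Fmod and Podn, all lower) in each library. Of all genes compared between the libraries over all cells, 12.8% were higher and 10.8% lower at 1.5-fold. Without cells carrying any of the 4 tendon markers, 6.48% were over 2-fold higher and 5.34% lower. The shares over all genes at the other settings and in the classes are not given here, so those counts are not read against them. The family's share of UMIs was 1.91% after thinning and 1.90% without the deepest 5% of cells or without cycling cells in Bap1WT (1.89% as reported), and 1.68%, 1.67% and 1.68% in Bap1ΔMPC, where it was 1.64% without tendon-marker cells (1.66% as reported). Of 50 member ratios, 43 kept their sign under all these settings and 42 their side of 2-fold. The 7 that changed sign were Bgn, Fmod and Aspn between libraries in Dpp4-type cells, Fmod, Podn and Ogn in Cxcl14-type cells, and Chad between classes in Bap1WT. The causes were not tested. No paired analysis was possible because a genotype had only 1 library. Depth limits Chad and Fmod in Dpp4-type cells, where 51 and 82 UMIs in both libraries together allow only wide intervals.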
